A study of Mus musculus with 9 samples.

Results

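The genes described here encode 10 helix-loop-helix (HLH) proteins that set how freely the muscle basic helix-loop-helix (bHLH) activators can work. They are the Id genes Id1, Id2, Id3 and Id4, the E protein genes Tcf3, Tcf4 and Tcf12, and the bHLH repressor genes Msc, Twist1 and Twist2. They were chosen by symbol, 10 of 19661 genes tested, and each was read by the 1 probe set annotated to it alone. Gene expression was measured on 9 Affymetrix mouse arrays with RNA from cultured skeletal muscle myoblasts, the dividing precursor cells of muscle fibres. There were 3 arrays from cells overexpressing Pax3, 3 from cells overexpressing Pax7 and 3 from cells with an empty vector, labelled CTAP Control. All groups had a Balb/c background and were cultured with 20% serum and with the growth factor bFGF at 4 ng/ml. The vector, its promoter, the time after its introduction and whether each group came from 1 clone are not stated in the labels. Nothing states that the replicates of a group were separate cultures, so the p-values reflect the spread among these samples alone, and that spread may be technical.

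Myod1, Myf5, Myog and Myf6 activate muscle genes by binding E-box DNA as dimers with E proteins, which are made in most tissues. Id proteins have the dimerising HLH region without the basic region that holds DNA, so they take up E proteins in dimers that cannot bind an E-box. BMP signalling through Smad factors is a well-known inducer of Id genes, and Id proteins are known to hold myoblasts in the undifferentiated state. Msc (musculin, also called MyoR) and the Twist proteins do bind DNA with E proteins and are known to restrain Myod1 activity. Pax3 and Pax7 are related paired-box factors that act in muscle precursors and stem cells.

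Promoter sequence of RefSeq (GRCm38.p6) was found for 7 of the 10 genes, not including Id1, Tcf4 and Msc. The 250 bases before the transcript start of 3 Id genes are shown because the results turn on them: Id2 and Id3 were lower in both overexpressing groups, and Id4 separated these groups. Capitals mark the E-box CANNTG (N is any base), which bHLH dimers bind, and the palindrome GGCGCC, a letter pattern known from BMP response elements.
Id2, minus strand, chr12:25096093-25096342: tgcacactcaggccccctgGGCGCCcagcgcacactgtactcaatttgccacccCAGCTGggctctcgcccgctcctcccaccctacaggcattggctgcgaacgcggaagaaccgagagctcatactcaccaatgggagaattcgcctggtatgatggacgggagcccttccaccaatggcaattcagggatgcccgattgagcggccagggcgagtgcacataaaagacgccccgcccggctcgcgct
Id3, plus strand, chr4:136143572-136143821: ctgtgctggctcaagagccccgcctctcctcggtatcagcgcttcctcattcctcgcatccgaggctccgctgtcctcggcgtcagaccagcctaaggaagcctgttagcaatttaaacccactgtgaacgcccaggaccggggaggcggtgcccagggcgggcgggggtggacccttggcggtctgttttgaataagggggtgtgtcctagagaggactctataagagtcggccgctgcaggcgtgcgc
Id4, plus strand, chr13:48260866-48261115: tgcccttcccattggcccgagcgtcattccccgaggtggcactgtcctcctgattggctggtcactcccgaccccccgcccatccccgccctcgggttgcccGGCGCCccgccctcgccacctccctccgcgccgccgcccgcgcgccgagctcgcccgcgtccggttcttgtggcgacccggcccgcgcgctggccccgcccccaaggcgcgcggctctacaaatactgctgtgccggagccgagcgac

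The Id2 window held 1 E-box, CAGCTG, starting 196 bases before the transcript, and 1 GGCGCC starting 231 bases before it. In the Id4 window there was 1 GGCGCC, starting 148 bases before the transcript, and no E-box, and the Id3 window held neither. Searched on both strands, the E-box letters occur in 66.2% of 32841 such mouse windows and GGCGCC in 9.59%. The short Smad box GTCT, present in 82.9% of windows, matched 1 time in Id2, 2 times in Id3 and 0 times in Id4. The homeodomain core ATTA, in 54.9% of windows, matched in none of these 3 windows. The paired domain core GTCAC, in 39.8%, matched 1 time in Id4 and in neither of the others. No 2 of these matches overlapped. A match of letters is a description and not a binding site, and a missing match says nothing of the factor.

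Each overexpressed gene was highest in the arrays labelled for it. Pax3 stood at a log2 intensity of 11.01 to 11.10 in Pax3 arrays, 6.80 to 6.87 in Pax7 arrays and 5.78 to 5.91 in control arrays. Pax7 stood at 8.14 to 8.26 in Pax3 arrays, 12.25 to 12.31 in Pax7 arrays and 10.45 to 10.60 in control arrays. The myoblast factor Myod1 lay between 12.43 and 12.54 in Pax3 arrays, 12.16 and 12.21 in Pax7 arrays, and 12.60 and 12.64 in control arrays. Of 10 myoblast markers, which include Pax7 itself, 2 rose and 6 fell in Pax3 arrays, and 3 rose and 6 fell in Pax7 arrays. The shares of these markers that passed were 80% and 90%, against 39.6% and 43.2% of all genes. The mean log2 level of the 10 markers per array was 10.892 to 10.898 in Pax3, 11.015 to 11.02 in Pax7 and 11.115 to 11.136 in control arrays. Pax7 counts among the falls in Pax3 arrays, where it was not the overexpressed gene (log2 fold change -2.33 against control). It counts among the rises in Pax7 arrays, where it was overexpressed, and it enters these means. The order of the means is thus no measure of myoblast identity apart from Pax7. Of the other markers, Des (-0.52 and -1.33), Met (-0.54 and -1.15), Cdh15, Itga7 and Ncam1 fell in both comparisons against control. Myf5 and Vcam1 rose in both. Xist, the transcript that silences an X chromosome in females, averaged 11.96 in Pax3 arrays, 11.72 in Pax7 arrays and 4.77 in control arrays. The Y-linked Uty averaged 3.85 in Pax3 arrays, 3.77 in Pax7 arrays and 9.27 in control arrays, so the control arrays had the transcripts of male cells and the overexpressing arrays those of female cells. By these transcripts the cells compared with control were of different sex, and so of different origin, and in every value against control the origin of the cells and the overexpressed factor cannot be told apart. Markers of other cell types were also counted, where 39.6% of all genes passed between Pax3 and control arrays and 43.2% between Pax7 and control arrays. Of 8 epithelial markers, 6 rose and 0 fell in each comparison against control (lower at unadjusted p under 0.05 in limma were 0 of 8). Their mean log2 level per array was 7.08 to 7.11 in Pax3, 7.76 to 7.77 in Pax7 and 6.20 to 6.40 in control arrays. Dsp (4.57 against control in Pax3 arrays and 4.83 in Pax7 arrays), Perp (0.60 and 2.72), Krt18 (0.66 and 2.44) and Krt19 (0.26 and 0.72) rose. The epithelial cadherin Cdh1 stayed at 5.28 to 5.47 in Pax3, 5.35 to 5.44 in Pax7 and 5.35 in all control arrays. Of 11 fibroblast and tendon markers, 1 rose and 4 fell in Pax3 arrays, and 2 rose and 4 fell in Pax7 arrays, with Islr lowest at -4.14 and -4.58. Their array means were 6.10 to 6.28 in Pax3, 6.05 to 6.12 in Pax7 and 6.60 to 6.64 in control arrays. Leukocyte markers numbered 2 rises of 6 in each comparison, with array means of 6.27 to 6.34 in Pax3, 6.27 to 6.33 in Pax7 and 5.62 to 5.72 in control arrays. Laptm5 (2.08 and 1.48) and Cd68 (1.36 and 2.04) rose, and the defining Ptprc did not pass (0.04 and 0.03). The leukocyte share that passed was 33.3% in each comparison, below that of all genes. Endothelial markers gave 1 rise of 6 in Pax3 and 2 of 6 in Pax7 arrays, with array means of 5.26 to 5.37 in Pax3, 5.41 to 5.42 in Pax7 and 5.16 to 5.25 in control arrays, and their shares that passed (16.7% and 33.3%) were also below those of all genes. The part of these markers in the results below was not tested.

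Of the 4 Id genes, 3 were lower in Pax3 than in control arrays, and Id4 did not pass. Id1 fell 1.98-fold, Id2 1.40-fold and Id3 1.32-fold, and the E protein genes Tcf4 and Tcf12 fell 1.25-fold and 1.14-fold, as did the bHLH repressor gene Twist2, 1.24-fold. Of the 10 genes, 6 fell and 0 rose by limma at an adjusted p under 0.05, where 19.7% of all genes fell and 19.8% rose. At an unadjusted p under 0.05, 1 was higher (Msc). In all, 6 of 10 genes passed, against 39.6% of all genes, and in 5 of 10 the arrays of the groups did not overlap, against 45.1% of all genes. The median log2 fold change was -0.29 over the 10 genes and 0.02 over all genes.

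In Pax7-overexpressing myoblasts Id1 was 1.84-fold, Id2 1.43-fold and Id3 1.18-fold lower than in control myoblasts. Tcf12 fell 1.28-fold and Tcf4 1.21-fold. Of the 10 genes, 5 fell and 0 rose by limma, where 21.5% of all genes fell and 21.6% rose, and at an unadjusted p under 0.05 the count of higher genes was 2 (Id4 and Msc). In all, 5 of 10 passed, against 43.2% of all genes, and in 5 of 10 the groups did not overlap, against 55.5% of all genes; both shares were near the background. The median log2 fold change was -0.21 over the 10 genes and 0.03 over all genes. Both comparisons use the same 3 control arrays, so they are not independent of each other. In bulk RNA, fewer cells that express a gene and less of its RNA per cell cannot be told apart.

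**Figure D1:**
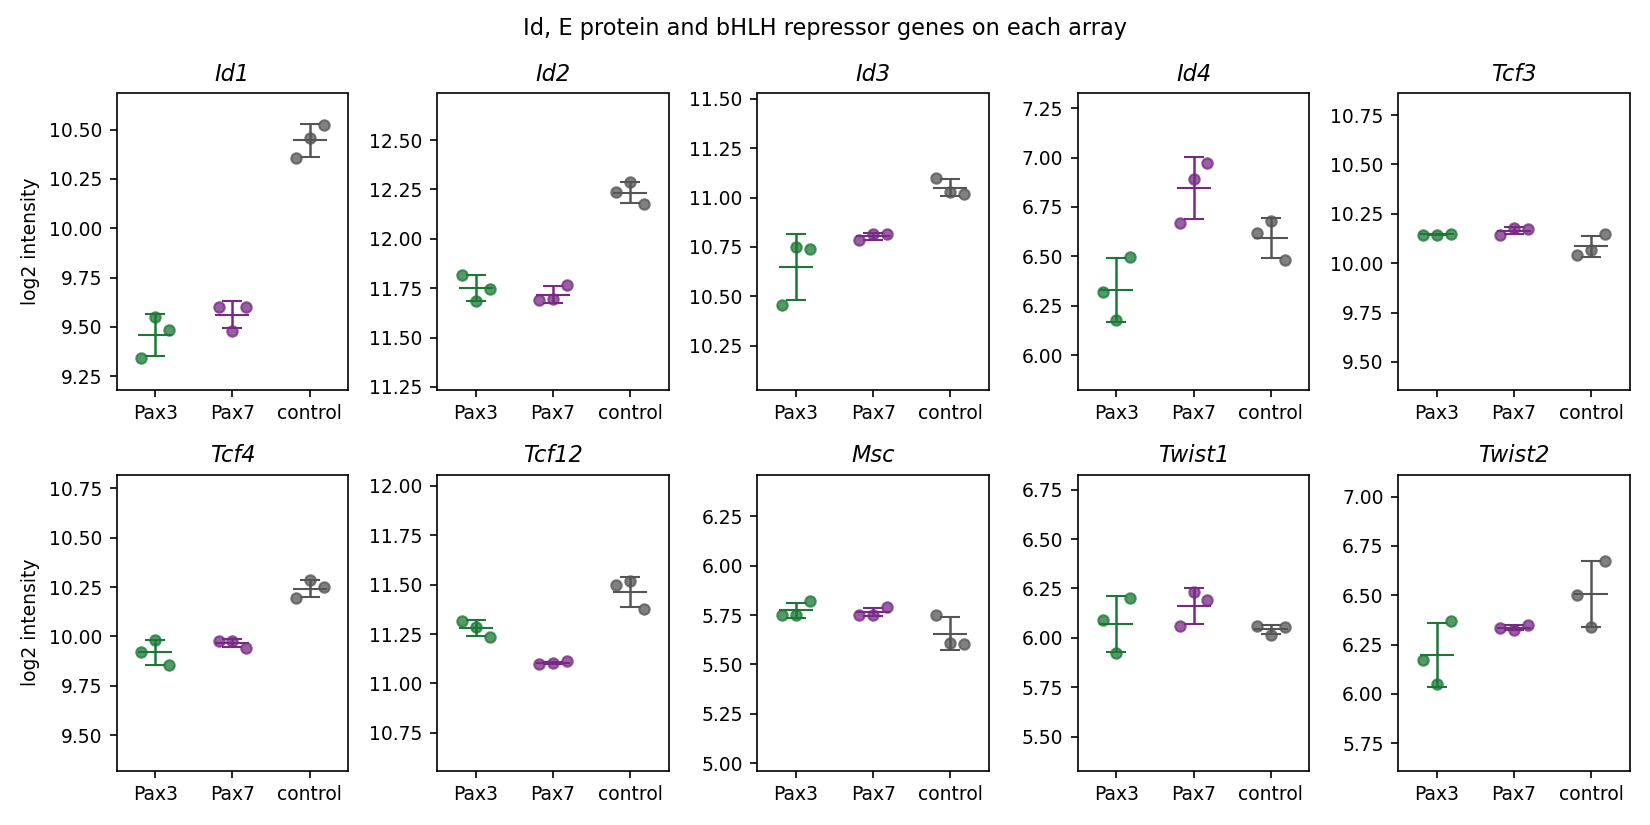
Log2 intensity of the 10 genes on each array, with Pax3, Pax7 and control arrays along the horizontal axis; points are single arrays, and the bar with whiskers is the mean ± SD of 3 arrays. Each panel spans 1.5 log2 units, and the Pax3 and Pax7 arrays lie below every control array for Id1, Id2, Id3, Tcf4 and Tcf12.

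Id1, the Id gene best known as a BMP target, changed most. It read 9.34, 9.55 and 9.48 in Pax3 arrays, 9.60, 9.48 and 9.60 in Pax7 arrays, and 10.36, 10.46 and 10.52 in control arrays. Pax7 replicates 1 and 3 held the same value (9.6017), so the spread may be too narrow. All 6 overexpressing arrays lay below all control arrays. The log2 fold change was -0.99 ± 0.0648 (SE, n = 3 per group, limma adjusted p = 3.55e-07) for Pax3 and -0.88 ± 0.0648 (limma adjusted p = 6.52e-07) for Pax7. Larger changes in either direction were seen in 4.92% of all genes for Pax3 and in 7.92% for Pax7. The order of levels was control, Pax7, Pax3, and the last 2 overlapped. Their difference, Pax7 minus Pax3, was 0.10 with a 95% interval of -0.04 to 0.25.

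Id2, which also binds E proteins and the retinoblastoma protein, read 11.82, 11.69 and 11.75 in Pax3 arrays, 11.69, 11.69 and 11.77 in Pax7 arrays, and 12.24, 12.29 and 12.18 in control arrays. Again no overexpressing array reached a control array. Its log2 fold change was -0.48 ± 0.0496 for Pax3 (SE, limma adjusted p = 1.28e-05) and -0.52 ± 0.0496 for Pax7 (limma adjusted p = 6.19e-06). Pax7 and Pax3 arrays overlapped and differed by -0.03, with a 95% interval of -0.14 to 0.08.

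Id3 fell less. It read 10.46, 10.75 and 10.74 in Pax3 arrays, 10.78, 10.82 and 10.82 in Pax7 arrays, and 11.10, 11.03 and 11.02 in control arrays. Pax7 replicates 2 and 3 held the same value (10.8158), so the spread may be too narrow. Pax3 replicate 1 was lower than the other 2 Pax3 arrays, and the 3 groups did not overlap, in the order control, Pax7, Pax3. The log2 fold change was -0.40 ± 0.0715 for Pax3 (SE, limma adjusted p = 0.000858) and -0.24 ± 0.0715 for Pax7 (limma adjusted p = 0.0171). The Pax7 call ended without control replicate 1 (adjusted p = 0.0646) or without Pax7 replicate 1 (adjusted p = 0.0544).

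Id4, the Id gene whose expression is most restricted to the nervous system and a few other tissues, followed another pattern. It read 6.32, 6.18 and 6.50 in Pax3 arrays, 6.67, 6.89 and 6.97 in Pax7 arrays, and 6.62, 6.68 and 6.48 in control arrays. Pax7 arrays lay above all Pax3 arrays, and each group overlapped the control arrays. Against control, the log2 fold change was -0.26 ± 0.0956 for Pax3 (SE, limma adjusted p = 0.0512) and 0.25 ± 0.0956 for Pax7 (limma adjusted p = 0.0546). Neither passed, but both lay close to the threshold. The first passed without control replicate 3 (adjusted p = 0.0424), Pax3 replicate 3 (0.014) or Pax7 replicate 1 (0.0338), and the second without Pax3 replicate 2 (0.0406), Pax3 replicate 3 (0.031) or Pax7 replicate 1 (0.0163).

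Among the E protein genes, Tcf4 read 9.92, 9.98 and 9.86 in Pax3 arrays, 9.98, 9.98 and 9.94 in Pax7 arrays, and 10.19, 10.28 and 10.25 in control arrays. It encodes the E protein E2-2 and is distinct from the Wnt effector that shares the name TCF4. No overexpressing array reached the control arrays, and the log2 fold change was -0.32 ± 0.0460 for Pax3 (SE, limma adjusted p = 0.000174) and -0.28 ± 0.0460 for Pax7 (limma adjusted p = 0.00047). Pax7 and Pax3 arrays overlapped and differed by 0.05 (95% interval -0.06 to 0.15).

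Tcf12, which encodes the E protein HEB, a partner of Myod1 at muscle genes, read 11.32, 11.29 and 11.23 in Pax3 arrays, 11.10, 11.10 and 11.11 in Pax7 arrays, and 11.50, 11.52 and 11.38 in control arrays. The 3 groups did not overlap, in the order control, Pax3, Pax7. The log2 fold change was -0.19 ± 0.0472 for Pax3 (SE, limma adjusted p = 0.00855) and -0.36 ± 0.0472 for Pax7 (limma adjusted p = 7.81e-05).

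Tcf3, which encodes the E2A proteins E12 and E47, read 10.14, 10.14 and 10.15 in Pax3 arrays, 10.14, 10.18 and 10.17 in Pax7 arrays, and 10.04, 10.07 and 10.15 in control arrays. The groups overlapped. Its log2 fold change was 0.06 (95% interval -0.03 to 0.15, limma adjusted p = 0.303) for Pax3 and 0.08 (-0.01 to 0.17, adjusted p = 0.152) for Pax7. The intervals thus hold at most 0.17 log2 units in size. Pax3 replicates 1 and 2 and Pax7 replicate 1 held the same value (10.1431), so the spread and these intervals may be too narrow.

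Of the 3 bHLH repressor genes, Twist2 fell in Pax3 arrays, and Twist1 and Msc did not pass in either comparison against control. Twist2 read 6.17, 6.05 and 6.37 in Pax3 arrays, 6.34, 6.32 and 6.35 in Pax7 arrays, and 6.50, 6.34 and 6.67 in control arrays. Its groups overlapped, and the log2 fold change of -0.31 ± 0.0908 for Pax3 passed (SE, limma adjusted p = 0.0184), while that of -0.17 ± 0.0908 for Pax7 did not (limma adjusted p = 0.165). The Pax3 call ended without control replicate 3 (adjusted p = 0.0774), Pax3 replicate 1 (0.0606) or Pax3 replicate 2 (0.0729), and the Pax7 change passed without control replicate 2 (adjusted p = 0.0497).

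Twist1, which is active in limb and head mesenchyme, read 6.09, 5.92 and 6.20 in Pax3 arrays, 6.06, 6.23 and 6.19 in Pax7 arrays, and 6.06, 6.02 and 6.05 in control arrays. Control arrays lay within the range of the Pax3 arrays. Its log2 fold change was 0.03 (95% interval -0.13 to 0.18, limma adjusted p = 0.805) for Pax3 and 0.12 (-0.04 to 0.27, adjusted p = 0.215) for Pax7.

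Msc read 5.75, 5.75 and 5.82 in Pax3 arrays, 5.75, 5.75 and 5.79 in Pax7 arrays, and 5.75, 5.61 and 5.60 in control arrays. The value in 5 of these arrays was identical to all deposited decimals, so the spread between them is not a measure of noise. Equal values in at least 2 arrays occur in 45.4% of probe sets. The log2 fold change was 0.12 (95% interval 0.01 to 0.23, limma adjusted p = 0.0844) for Pax3 and 0.11 (0.0001 to 0.22, adjusted p = 0.101) for Pax7, and both passed without control replicate 1 (adjusted p = 0.0183 and 0.022). The files hold no detection calls, so it is not known whether the probe sets of Msc, Twist1, Twist2 and Id4 read above background. Id4 lay at 6.18 to 6.97 over the 9 arrays, near the array medians of 6.397 to 6.477.

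**Figure D2:**
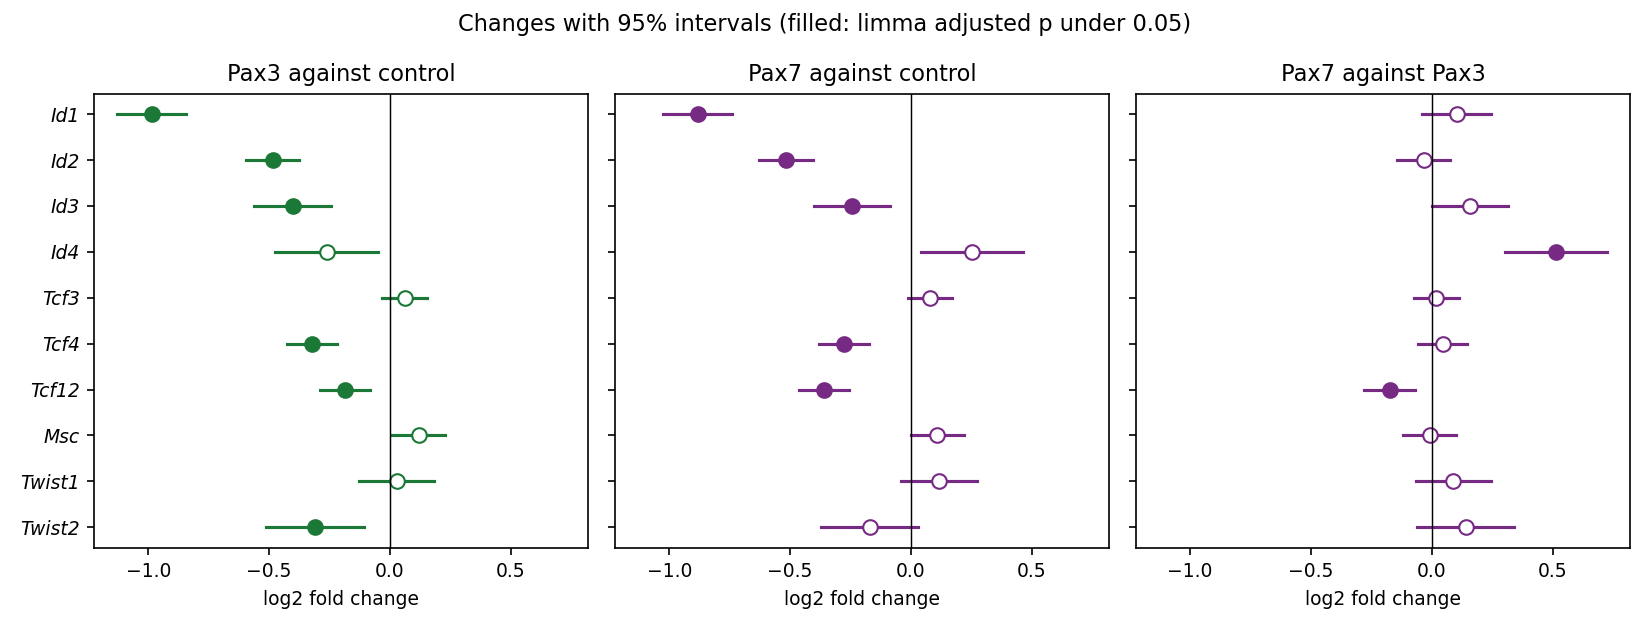
Log2 fold change (horizontal axis) of each of the 10 genes with its 95% interval in the 3 comparisons; filled points passed limma's adjusted p under 0.05. Id1 lies furthest from 0 in both comparisons against control (-0.99 and -0.88), and Id4 in the comparison of Pax7 with Pax3 (0.51).

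The comparison of Pax7 with Pax3 sets the 2 overexpressing groups against each other and does not use the control arrays for its means. The labels do not say whether each group came from 1 clone. A difference between the cells and one between the factors thus cannot be told apart here. Id4 was 1.43-fold higher in Pax7 than in Pax3 arrays, and Tcf12 was 1.13-fold lower. The other 8 genes did not pass. Of the 10 genes, 2 passed by limma, against 16.9% of all genes, with 1 higher (8.33% of all genes) and 1 lower (8.54%). The groups did not overlap in 3 of 10 genes, against 29.4% of all genes, and both shares were near the background. The median log2 fold change was 0.07 over the 10 genes and 0.01 over all genes. Id4 differed by 0.51 ± 0.0956 (SE, n = 3 per group, limma adjusted p = 0.00336), a difference larger than that of all but 3.7% of genes. Tcf12 differed by -0.17 ± 0.0472 (SE, limma adjusted p = 0.0278). The Tcf12 call ended without Pax3 replicate 1 (adjusted p = 0.0975) or 2 (0.0659), and without Pax7 replicate 1 (0.0843), 2 (0.0837) or 3 (0.0748). Id3, with groups that did not overlap, differed by 0.16 (95% interval -0.0004 to 0.32, limma adjusted p = 0.186). Twist2, Twist1, Tcf3 and Msc differed by 0.14, 0.09, 0.02 and -0.01, with intervals that all reached from below to above 0.

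Genes of the BMP pathway, whose Smad factors drive Id genes, and of the related TGF-beta pathway went in both directions. Of 45 measured, 14 rose, 16 fell and 15 did not pass in Pax3 arrays, and 16 rose, 16 fell and 13 did not pass in Pax7 arrays. Their median log2 fold changes were -0.04 and -0.01, against 0.02 and 0.03 over all genes. The shares that passed were 66.7% and 71.1%, against 39.6% and 43.2% of all genes. The ligand gene Bmp4 read 7.46, 7.45 and 7.22 in Pax3 arrays, 11.13, 11.01 and 11.04 in Pax7 arrays, and 5.73, 5.45 and 5.81 in control arrays. The 3 groups were far apart, with a log2 fold change of 1.72 for Pax3 and 5.40 for Pax7 (limma adjusted p = 7.88e-08 and 9.46e-12). Bmp6 rose by 1.15 for Pax3, where all 3 arrays held the same value, and by 3.83 for Pax7. Pax7 arrays exceeded Pax3 arrays by 3.68 log2 units for Bmp4 and by 2.68 for Bmp6. The ligand Tgfb3 fell (-1.60 and -1.41).

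The secreted BMP antagonists did not move together. Noggin (Nog) read 7.06, 7.16 and 7.27 in Pax3 arrays, 6.93, 6.76 and 7.06 in Pax7 arrays, and 8.16, 8.32 and 8.48 in control arrays, with log2 fold changes of -1.16 for Pax3 and -1.40 for Pax7 (limma adjusted p = 1.93e-06 and 2.98e-07). Follistatin (Fst), which binds activins and some BMPs, fell (-3.24 for Pax3 and -2.43 for Pax7), and gremlin (Grem1) rose by 2.12 and 1.89. Of the receptors, Acvr2a (-1.43 and -1.72), Acvr1 (-0.43 and -0.48) and Bmpr1a (-0.16 and -0.18) fell, while Bmpr1b rose by 0.48 and 0.83. Bmpr2 did not pass (log2 fold change 0.01 and -0.13). Of the BMP-activated Smads, Smad1 rose by 0.29 and 0.34 and Smad5 fell (-0.13 and -0.22). Smad9 fell by 0.46 in Pax3 arrays and rose by 0.34 in Pax7 arrays, and its Pax7 minus Pax3 difference of 0.80 passed (limma adjusted p = 6.58e-06).

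Other genes known as BMP targets or feedback inhibitors differed among themselves. Smad6, an inhibitory Smad induced by BMP, read 8.15, 8.21 and 8.18 in Pax3 arrays, 8.47, 8.43 and 8.43 in Pax7 arrays, and 8.52, 8.51 and 8.69 in control arrays. It fell by 0.39 for Pax3 (limma adjusted p = 0.00011), and its change of -0.13 for Pax7 did not pass (adjusted p = 0.0688). The inhibitory Smad7 did not pass in either comparison (-0.06 and -0.05). The decoy receptor gene Bambi rose by 0.21 and 0.44, and the bHLH gene Atoh8 fell (-0.74 and -0.71).

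**Figure D3:**
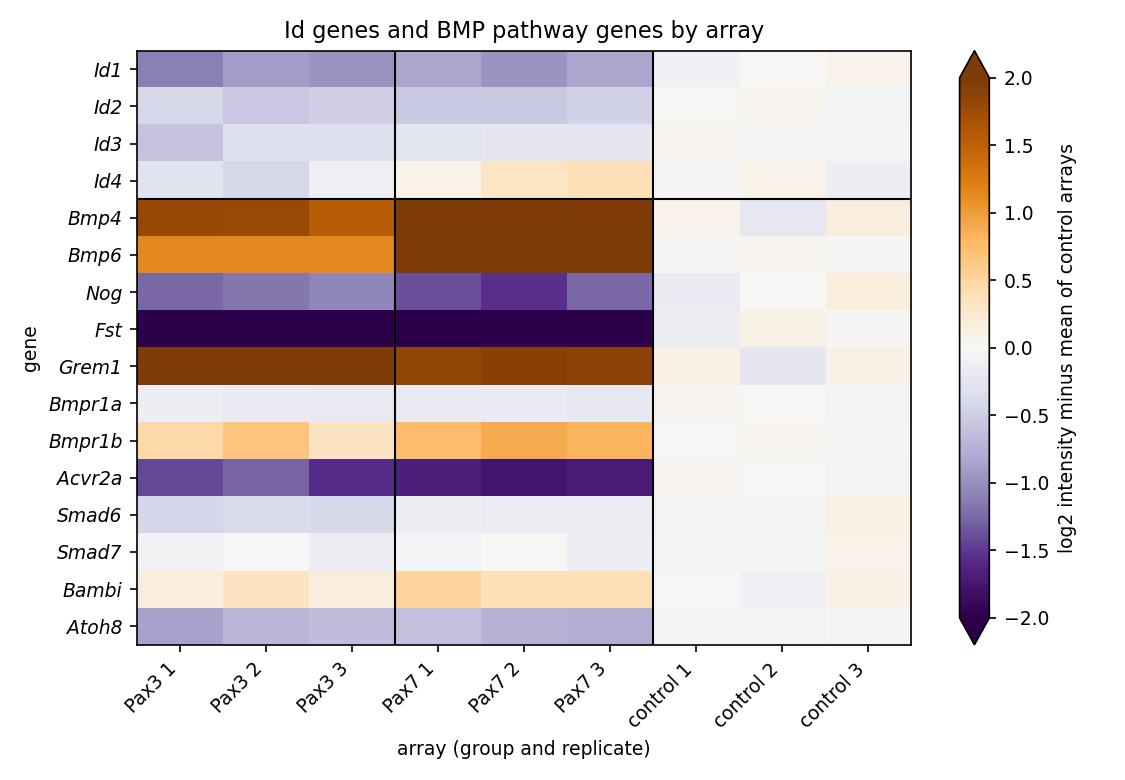
Log2 intensity minus the mean of the 3 control arrays, as colour, for the 4 Id genes and 12 BMP pathway genes (rows) on the 9 arrays (columns); colours saturate at 2 log2 units. Bmp4 and Bmp6 lie above control in all Pax3 and Pax7 arrays, and Id1, Id2 and Id3 below it.

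Other repressors that act at E-boxes or related sites went in both directions. Of 22, 5 rose, 11 fell and 6 did not pass in Pax3 arrays, and 4 rose, 12 fell and 6 did not pass in Pax7 arrays, with medians of -0.095 and -0.24. The share that passed was 72.7% in each comparison, against 39.6% and 43.2% of all genes. The Notch effectors Hey1 (-2.97 for Pax3 and -3.10 for Pax7) and Heyl (-2.10 and -2.07) and the Myc antagonist Mxd4 (-1.37 and -1.60) fell. Bhlhe40, a bHLH repressor also known as a clock component, rose by 2.73 and 3.21. Of 30 bHLH genes of other tissues 0 rose and 1 fell in Pax3 arrays, against 19.8% and 19.7% of all genes (3 were higher and 2 lower at an unadjusted p under 0.05 in limma). Their array means were 5.64 to 5.83 in Pax3, 5.72 to 5.77 in Pax7 and 5.68 to 5.72 in control arrays. These lie under the array medians of 6.397 to 6.477. Whether most of them read above background is not known, so few calls do not show that they were steady. Olig3 stood at 0.36 in both comparisons without passing (limma adjusted p = 0.0532 and 0.0505). In Pax7 arrays 1 rose and 1 fell of these 30, against 21.6% and 21.5% of all genes. The tendon factor Scx fell (-0.64 and -0.63), and Tcf21 rose by 0.18 for Pax7.

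The list of partners and targets of E proteins in muscle mostly fell, while the bHLH activators within it were split. Of 25 muscle bHLH activators and differentiation genes with E-box control, 3 rose, 18 fell and 4 did not pass in Pax3 arrays, and 3 rose, 20 fell and 2 did not pass in Pax7 arrays. The medians were -0.675 and -1.34. The shares that passed were 84% and 92%, against 39.6% and 43.2% of all genes. Between Pax7 and Pax3 arrays, 20 of the 25 fell and 0 rose by limma (1 was higher at an unadjusted p under 0.05). Of all genes, 8.54% fell and 8.33% rose between these arrays. Creatine kinase Ckm (-2.80 for Pax3 and -3.28 for Pax7), embryonic myosin Myh3 (-2.05 and -3.31) and the fast light chain Mylpf (-1.85 and -2.83) fell. In Pax7 arrays cardiac actin Actc1 and the light chain Myl1 each fell by 2.93. Of the bHLH activators, Myf5 rose by 1.97 and 2.02 and Myf6 by 0.51 and 0.41, while Myog fell (-1.30 and -2.43). Myod1 did not pass for Pax3 (-0.12) and fell for Pax7 (-0.43).

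Cdk inhibitor genes, several of which E proteins are known to activate and Id proteins to oppose, split. Cdkn1a was on this list but was not among the genes measured. Of 6 measured, 2 rose, 3 fell and 1 did not pass in Pax3 arrays, and 3 rose and 3 fell in Pax7 arrays, with medians of -0.10 and -0.08. The shares that passed were 83.3% and 100%, against 39.6% and 43.2% of all genes. Cdkn2a (1.42 for Pax3 and 1.58 for Pax7) and Cdkn2b (0.89 and 0.95) rose, while Cdkn1c (-1.15 and -1.16) and Cdkn2c (-0.67 and -1.03) fell. Of 18 E protein cofactors and Id turnover genes, 2 rose, 5 fell and 11 did not pass in Pax3 arrays, and 3 rose, 6 fell and 9 did not pass in Pax7 arrays, with medians of -0.01 and -0.04. The shares of these cofactor and turnover genes that passed, 38.9% and 50%, were near those of all genes (39.6% and 43.2%). Mdfic, related to the inhibitor of MyoD family protein Mdfi, rose by 1.07 and 1.16. Runx1t1, a corepressor that binds E proteins, rose by 0.46 and 0.29, and the acetyltransferase gene Kat2b rose by 0.48 for Pax7. The LIM-only cofactor Lmo2 (-0.38 and -0.72) and the signalosome subunit gene Cops5 (-0.33 and -0.42) fell.

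**Figure D4:**
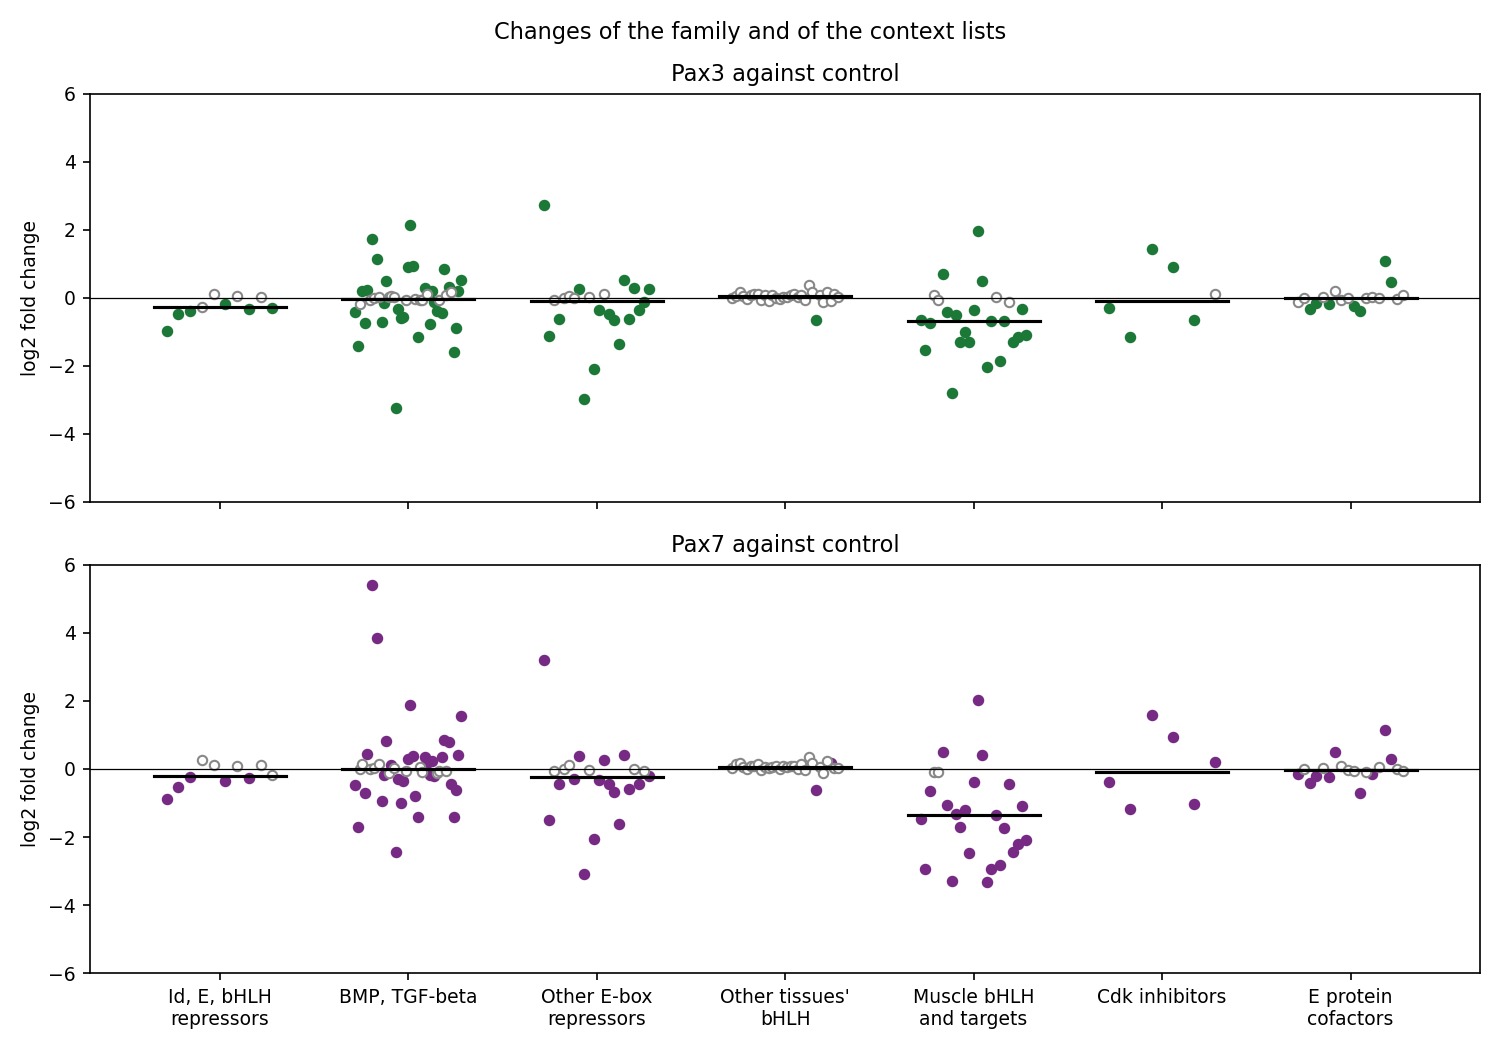
Log2 fold change (vertical axis) of the 10 genes and of the genes of 6 context lists, for Pax3 (top) and Pax7 (bottom) against control; filled points passed limma's adjusted p under 0.05 and the line is the median. The medians of the 10 genes (-0.29 and -0.21) lie nearer to 0 than those of the muscle list (-0.675 and -1.34).

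The genes with profiles nearest to that of Id1 over the 9 arrays were Abhd8, Ece2 and Parp3. Their values, each centred on the gene's own mean, differed from those of Id1 by a mean of 0.0464, 0.0466 and 0.0569 log2 units. Against control they stood at -0.93, -1.01 and -0.83 for Pax3 and at -0.78, -0.98 and -0.82 for Pax7. For Id4 the nearest were Flrt3, Phlda2 and G6pd2, at mean differences of 0.0862, 0.0872 and 0.0959.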

How the data were processed

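Biotin-labelled total RNA of 9 samples was read on 9 Affymetrix mouse arrays, per the labels' protocols. The authors deposited log2 intensities per probe set made with RMA in R 2.10.0, per the submitters' processing notes. Deposited values ran from 1.93 to 13.23 over 25668 probe sets, with array medians of 6.397 to 6.477 and r of 0.9971 to 0.999 within groups. The number of arrays limits their precision. Any filter or genome build behind them is not given.

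The platform annotation gave 1 symbol to 20777 probe sets, and 20696 of them matched a RefSeq gene table of GRCm38.p6 by gene identifier. The probe set with the highest mean stood for each of 19661 genes. Group means of the 9 arrays were compared with limma 3.58.1 (R 4.3.3), with all groups sharing one variance per gene (6 residual and 4.37 prior df), with Benjamini-Hochberg adjustment over all genes and a threshold of 0.05. Errors of fold changes are moderated standard errors.

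The members and the 11 lists were chosen with earlier results of these data known. Context genes were named as the up to 4 largest changes past the threshold per list and comparison. No member's group means spanned 1 log2 unit, so the rule named no genes of like profile. Nearest profiles, BMP antagonists other than Fst and Grem1, BMP receptors, Smads, Bambi and Atoh8 were named after their values were seen. So were Olig3, Myod1, Myog, Myf6, Itga7, Ncam1, Cdh1 and Ptprc. Alternatives covered the probe set rule, filters, priors, weights, scaling, samples, the replicate block, a fold threshold and leaving out each array.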

Additional observations from a re-analysis of the deposited data

Results flagged for a closer look

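The changes against control in Pax7 and Pax3 arrays differed for 2 of the 10 genes, by the test of the difference itself. That share was near the 16.9% of all genes that passed between Pax7 and Pax3 arrays. In these changes the origin of the cells and the overexpressed factor cannot be told apart. For Id4 the Pax7 change minus the Pax3 change was 0.51 log2 units (limma adjusted p = 0.00336), with 3 of 3 Pax7 arrays above the highest Pax3 array. Its change against control was 0.25 for Pax7 and -0.26 for Pax3, and neither passed. For Tcf12 the difference was -0.17 (limma adjusted p = 0.0278), with 3 of 3 Pax7 arrays below the lowest Pax3 array and falls against control in both groups (-0.36 for Pax7 and -0.19 for Pax3). The Tcf12 call was lost in 7 of 20 alternatives and the Id4 call in 1 of 19.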

How the results depend on the processing

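Across 20 alternatives, Id1 and Id2 kept their fall and their call in both comparisons against control, with log2 fold changes of -1.04 to -0.93 (Id1) and -0.52 to -0.45 (Id2) for Pax3 and of -0.93 to -0.84 and -0.54 to -0.49 for Pax7. Of 588 values over 30 gene comparisons, 541 kept direction and call, 21 lost the call, 22 gained it and 4 turned in sign. A test against a fold change of 1.2 left 2 genes called for Pax3 against control, 2 for Pax7 against control (Id1 and Id2 each time) and 0 for Pax7 against Pax3. Leaving out 1 array gave 5 to 7, 5 to 6 and 1 to 2 calls. For Pax7 against Pax3, 1 gene was called without the lowest 50% of genes, a filter that removed Id4, Msc, Twist1 and Twist2, and 1 with arrays centred on their medians (Tcf12 at adjusted p = 0.0601). The signs that turned were of uncalled values near 0: when 1 array was left out, Twist1 for Pax3 ranged between -0.0365 (without Pax3 replicate 3) and 0.1033. For Pax7 against Pax3, Id2 ranged between -0.0649 and 0.0012 (without Pax3 replicate 1) and Msc between -0.022 and 0.0129 (without Pax3 replicate 3), and Msc stood at 0.006 with array weights. With the replicate number as a block, 6, 5 and 2 genes were called. Deviations of same-numbered arrays correlated at -0.026 to 0.225 and those of other pairs at -0.247 to 0.246, and 8 of 18 best matches had the same number. These ranges overlap, so the check cannot tell whether same-numbered arrays shared a culture or batch. With only the 2 groups compared, Twist2 missed the threshold for Pax3 (adjusted p = 0.0532). Id4 passed against control in 8 of 19 alternatives for Pax3 and 9 of 19 for Pax7. Id3 passed between Pax7 and Pax3 with array weights (0.28, adjusted p = 0.00719), and Tcf3 for Pax7 against control (adjusted p = 0.0483). Signal over background could not be read from these files.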
